A study of Mus musculus with 16 samples.

Results

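The middle of the gut tube and the extraembryonic visceral endoderm (exVE) were compared across all genes, using 6 of the 16 libraries of a study of endoderm in the mouse embryo. Their groups were taken from the sample labels, as the 4 libraries of the sections labelled anterior-midgut and midgut-posterior and the 2 libraries of exVE. The comparison itself was chosen with earlier results of these data known. The sections were cut as bulk tissue from gut tubes of embryos with 13 somites, at embryonic stage E8.75, and the labels' protocol, written for single cells, takes such gut tubes from embryos that carry 1 copy of an Afp-GFP transgene, a reporter driven by sequences of the Afp gene. The exVE libraries are labelled as cells from E7.5 embryos, with no genotype given, and the labels' protocol peels the endoderm layer off after a short digestion with pancreatin and trypsin and then makes single cells with Accutase and trypsin. Which of these steps the bulk sections and the exVE cells went through is not stated in the labels. Stage and tissue differ together, with any difference in handling, and their parts cannot be told apart. The other 10 libraries were whole gut tubes, bulk or dissociated, the anterior and posterior sections, and the embryonic visceral endoderm (emVE) at E7.5. They entered the statistical fit. The question is which nutritive programs of visceral endoderm were also present in the middle gut and which were lower or lacking there.

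Visceral endoderm is the outer epithelium of the early mouse embryo, and over the extraembryonic region it feeds the embryo before the placenta works. Its cells take up maternal proteins through large receptors at the apical surface, break them down in lysosomes, and secrete carrier proteins and lipoproteins. The embryonic part of the visceral endoderm is later incorporated into the gut tube, whose own epithelium will give rise to intestine, liver and pancreas and will later absorb nutrients with many of the same genes.

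Library totals were between 70987960 and 75494338 counts in the middle sections and were 62986213 and 66331762 in exVE. Levels are in CPM, the count of a gene scaled to the library total times a normalization factor (TMM). Per-library values are always given for anterior-midgut replicates 1 and 2, midgut-posterior replicates 1 and 2, and then exVE replicates 1 and 2. Means carry the SD, with n = 4 for the middle sections and n = 2 for exVE. A log2 fold change is middle sections minus exVE, from edgeR's quasi-likelihood test with Benjamini-Hochberg adjustment over 17313 genes, and "rose" and "fell" are used at an adjusted p under 0.05. The labels do not say whether libraries of a group came from separate embryos or pools, so the p-values measure only the spread between these samples. In bulk libraries, fewer cells of a type and less RNA per cell cannot be told apart.

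Both tissues carried the markers of their labels in part. Of the visceral endoderm markers, Apob, Amn, Cubn and Hnf4a were present in all 6 libraries and lower in the middle sections, while Afp overlapped between the groups. Among the gut tube markers, the adhesion molecule gene Epcam stood at 208, 165, 223 and 159.9 CPM in the middle sections and 186 and 186 CPM in exVE, and the groups overlapped. The pioneer factor gene Foxa1 stood at 70.4, 66.8, 90.4 and 58.0 CPM in the middle sections and 8.57 and 6.50 CPM in exVE, higher in every middle library (log2 fold change 3.24, SE 0.33, adjusted p = 5.02e-06). Foxa2, its relative, stood at 37.9, 27.5, 25.4 and 18.2 CPM in the middle sections and 64.7 and 62.3 CPM in exVE (adjusted p = 0.00512), and the proteoglycan gene Nepn, a midgut marker, at 191, 221, 717 and 454 CPM in the middle sections and 1.41 and 1.73 CPM in exVE (adjusted p = 8.30e-07). Cdx2 overlapped between the groups and Cdh1 was higher in exVE, so neither marks the gut tube side here. Mitochondrial transcripts took between 2.36% and 2.63% of the counts in the middle sections and 6.65% and 5.75% in exVE. TMM factors were between 1.01 and 1.03 in the middle sections and were 0.787 and 0.775 in exVE. Summed endothelial markers were 121 CPM in exVE replicate 1 and 62.6 CPM in exVE replicate 2. Several genes near 0 in exVE had other fold changes when 1 of these libraries was left out, as given with some of them. Those of Shh, Col3a1, Myh6, Actc1, Twist2, Isl1, Mnx1, Serpina1a and Serpina1b also shifted, without values given here.

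Across the genome the comparison was broad. Of 17313 genes, 10869 passed (62.8%), with 6049 higher in the middle sections (34.9%) and 4820 lower (27.8%). The median log2 fold change over all genes was 0.17. Scaling to library totals alone moved this median to 0.55 and the split to 8028 higher and 3208 lower, so that the share of calls that were higher was 71.4% in place of 55.7%. Under that scaling, which adds about the same amount to every gene, the medians of the retinoid and vitamin handling, glycogen and gluconeogenesis and epithelium lists were above 0 in place of below it. The nutritive genes did not share this balance. The 14 lists of genes of uptake, digestion, transport and secretion were drawn up with earlier results of these data known. They hold 346 genes, of which 336 were tested. Of these, 215 fell (64.0%), 58 rose (17.3%) and 63 did not pass, with a median log2 fold change of -1.29.

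Most nutritive genes that were well expressed in exVE were also present in the middle gut, but less often than all genes, and many were lower. Of the 346 list genes, 256 were at 10 CPM or more in both exVE libraries (49.4% of all genes tested were), and 217 of these (84.8%) were also at 10 CPM or more in all 4 middle libraries. Over all genes tested, 7818 were at that level in all 6 libraries (45.2%). Of all genes tested that were at 10 CPM or more in both exVE libraries, 91.4% were, a larger share than in the lists. Of the 217, 158 fell. No list gene was under 1 CPM in all 4 middle libraries and at 10 CPM or more in both exVE libraries. Leaving out anterior-midgut replicate 1 left 1 such gene, Gc, the vitamin D carrier. For 56 list genes the 95% interval of the log2 fold change lay within -1 to 1, so that a change of more than 2-fold is outside the interval. That bound held for 5365 of all genes (31.0%).

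**Figure D1:**
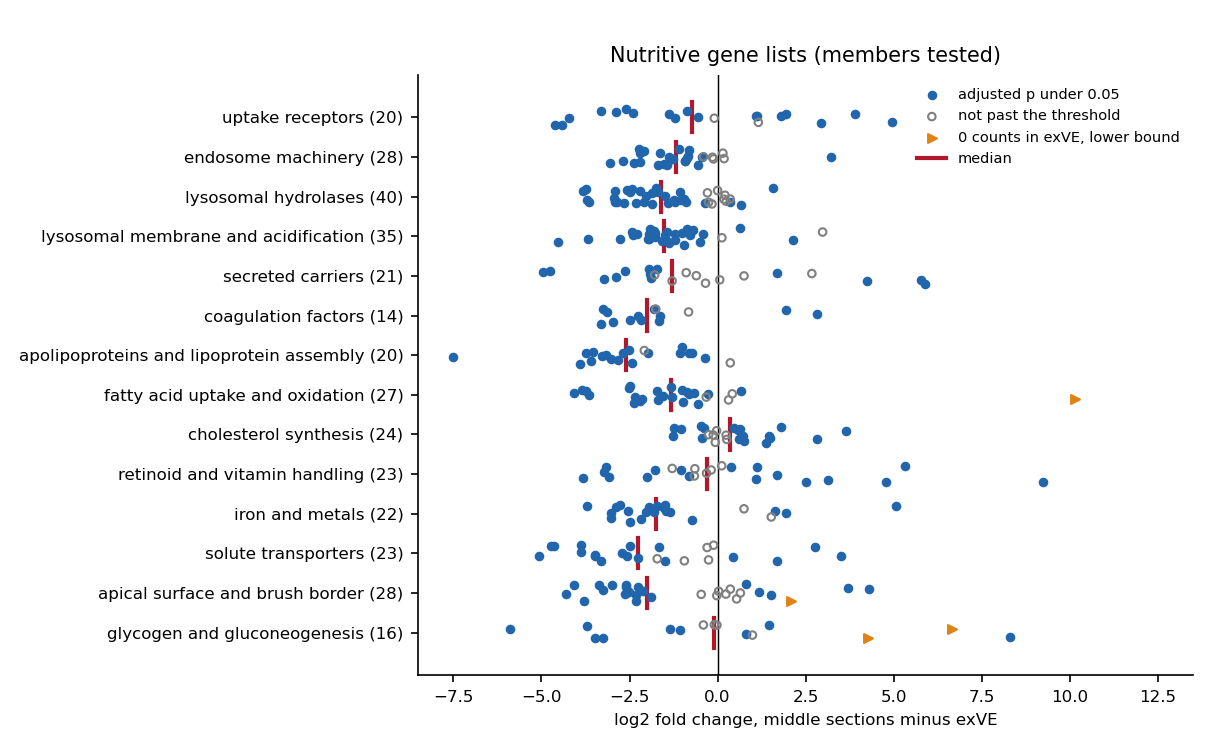
Each point is 1 gene of a nutritive list, placed by its log2 fold change, middle sections minus exVE, with the median of the members tested as a red line. Filled points passed at an adjusted p under 0.05, triangles are lower bounds for genes with 0 counts in both exVE libraries, and 2 genes at or under the floor of 3 counts in both groups are not drawn. The medians of apolipoproteins (-2.61) and solute transporters (-2.27) lie farthest to the left, and that of cholesterol synthesis (0.36) lies to the right of 0.

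The secreted carriers included Afp, whose level did not differ beyond its spread, and others that fell. Afp, the fetal counterpart of serum albumin, stood at 1409, 485, 1219.6 and 690.5 CPM in the middle sections and 841 and 983 CPM in exVE. The exVE values lay inside the range of the middle libraries (log2 fold change 0.06, SE 0.76, adjusted p = 0.958). Its 95% interval ran from -1.61 to 1.73, and both ends lie beyond a 2-fold change. Ttr, which carries thyroid hormone and the retinol carrier, stood at 765, 291, 573 and 394 CPM in the middle sections and 1715 and 1772 CPM in exVE. Every middle library was below both exVE libraries, but the test was missed (log2 fold change -1.79, SE 0.73, adjusted p = 0.0508). It passed without anterior-midgut replicate 1 (adjusted p = 0.0412) and in DESeq2 (adjusted p = 0.0374). The retinol carrier gene Rbp4 fell, at 616 ± 273 CPM in the middle sections and 2341 ± 120.1 CPM in exVE (log2 fold change -1.93, SE 0.57, adjusted p = 0.0115), a call that was lost without exVE replicate 2 (adjusted p = 0.0512). Spink1, a trypsin inhibitor gene, and Apom, a carrier of sphingosine 1-phosphate, fell as well, by log2 fold changes of -1.96 and -2.63.

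Carriers of vitamins fell, among other genes of the list. Tcn2, which delivers vitamin B12 to cells, stood at 71.5, 37.3, 62.3 and 50.7 CPM in the middle sections and 492 and 549 CPM in exVE, with the groups far apart (log2 fold change -3.23, SE 0.26, adjusted p = 8.03e-07). Gc, the vitamin D carrier, stood at 1.56, 0.701, 0.558 and 0.471 CPM in the middle sections and 20.3 and 21.3 CPM in exVE and fell 27.2-fold (adjusted p = 2.07e-05). In the other direction, Serpinf1, an antiangiogenic serpin gene, rose and stood at 25.2, 27.2, 23.8 and 23.9 CPM in the middle sections and 0.484 and 0.428 CPM in exVE (log2 fold change 5.77, SE 0.27, adjusted p = 2.23e-08). Serpina1a and Serpina1b, near-identical copies of the alpha-1-antitrypsin gene, are uncertain because the counting may split their reads. Both were called higher at low levels, with 2.48 ± 0.474 against 0.0403 ± 0.0570 CPM and 7.16 ± 1.76 against 0.372 ± 0.355 CPM in the middle sections and exVE. In all, 9 of 21 secreted carrier genes fell and 4 rose, with a median of -1.29. Coagulation genes fell in 10 of 14 cases and rose in 2 (median -1.998), or in 1 without either exVE replicate. Fibrinogen beta, Fgb, stood at 55.0, 23.4, 44.8 and 34.2 CPM in the middle sections and 216 and 162 CPM in exVE, and prothrombin, F2, at 10.2, 3.28, 8.12 and 4.98 CPM in the middle sections and 58.6 and 58.6 CPM in exVE. Both fell (adjusted p = 0.0062 and adjusted p = 5.79e-05), while Fga was below both exVE libraries in every middle library without passing (adjusted p = 0.0698).

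Lipoprotein assembly had the lowest median of the 14 nutritive lists. Of 20 genes 18 fell (median -2.61). The count higher was 0 in the main edgeR fit, at an unadjusted p under 0.05 as well, and 0 in DESeq2. It was 1, Dgat1, in edgeR with library totals alone and with only the compared groups in the fit. Apob, the structural protein of secreted lipoproteins, stood at 1422, 533, 975 and 647 CPM in the middle sections and 11669 and 11883 CPM in exVE, 13.2-fold lower (log2 fold change -3.73, SE 0.93, adjusted p = 0.00414). Mttp, which loads lipid onto Apob, stood at 194, 89.0, 159.9 and 115 CPM in the middle sections and 1559.8 and 1704 CPM in exVE (log2 fold change -3.55, SE 0.34, adjusted p = 2.98e-06). Apoe and Apoa1, carried on these particles, fell by 3.29 and 2.69 on the log2 scale (adjusted p = 2.13e-04 and 0.0366). The call of Apoa1 was lost when any library other than anterior-midgut replicate 1 was left out (adjusted p between 0.0762 and 0.108). Apoc2, the cofactor of lipoprotein lipase, was at 0.0306 ± 0.0204 CPM in the middle sections and 5.52 ± 1.41 CPM in exVE, a low level in exVE and close to 0 in the middle sections. Apoa2 and Dgat1 were the genes that did not pass. The summed level of the list was 5489, 2633, 4534 and 3312 CPM in the middle sections and 28226 and 29319 CPM in exVE, and the groups did not overlap.

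**Figure D2:**
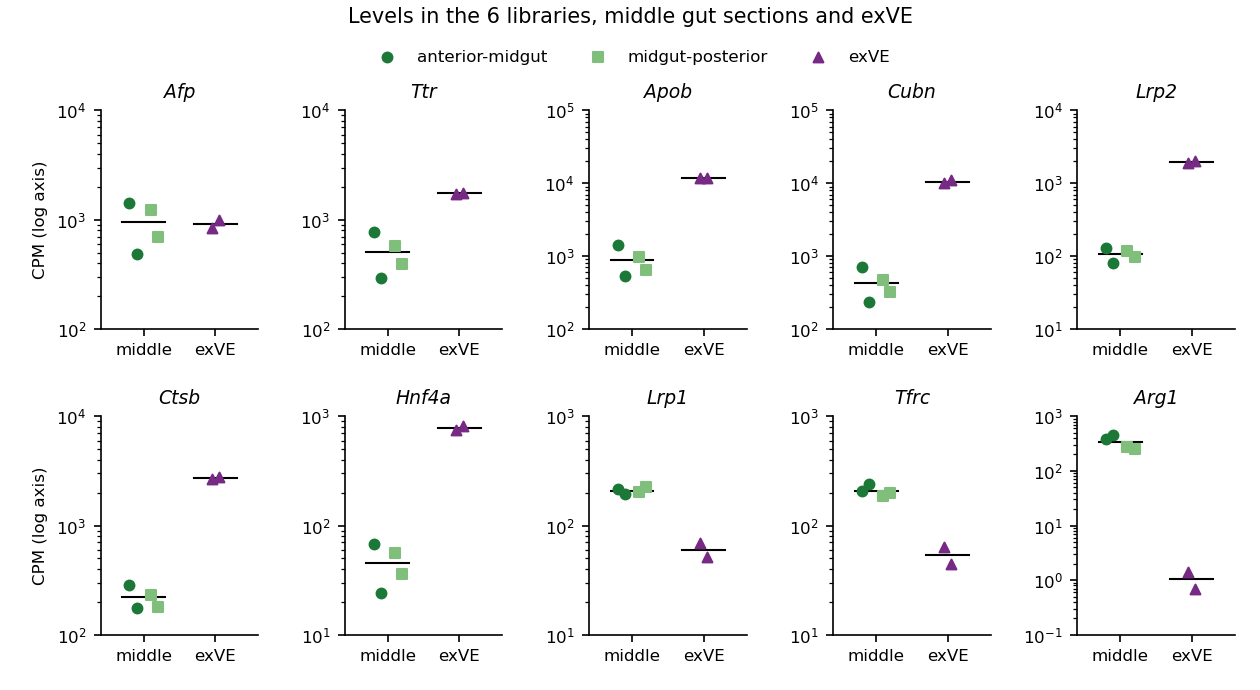
Level of 10 genes in each library, in CPM on a log axis, with the 4 middle libraries on the left (circles for anterior-midgut, squares for midgut-posterior), the 2 exVE libraries on the right and the mean as a line. Afp overlaps between the groups, Ttr, Apob, Cubn, Lrp2, Ctsb and Hnf4a lie lower in every middle library, and Lrp1, Tfrc and Arg1 lie higher.

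Many secretory genes varied together among the middle libraries. Afp varied 2.91-fold among them (SD of log2 CPM 0.717), with the highest level in anterior-midgut replicate 1 and the lowest in anterior-midgut replicate 2. In both sections replicate 1 was above replicate 2 for Afp, Apob, Cubn and Hnf4a. Relative to Afp in the same library, which needs no scaling between libraries, several genes varied far less. The log2 ratio of Apoe to Afp was -0.50 ± 0.0684 in the middle sections and 2.85 ± 0.0855 in exVE. That of Apoa1 was -0.71 ± 0.0971 in the middle sections and 2.06 ± 0.0371 in exVE, and that of Rbp4 was -0.61 ± 0.103 in the middle sections and 1.36 ± 0.0850 in exVE. For Slc2a2, the low-affinity glucose transporter gene, the ratio was -4.36 ± 0.0590 in the middle sections and -0.41 ± 0.0414 in exVE. The receptor gene Cubn, at -1.13 ± 0.181 in the middle sections and 3.53 ± 0.0707 in exVE, and the transcription factor gene Hnf4a, at -4.36 ± 0.0867 in the middle sections and -0.21 ± 0.0776 in exVE, also varied less than Afp itself. None of these ratios overlapped between the groups. The same held, below exVE, for 1378 of 7817 genes at 10 CPM or more in all 6 libraries. The log2 fold change of Afp was 0.06, so differences in these ratios are close to the genes' own fold changes and are not separate support. With 4 libraries against 2, the smallest two-sided p of an exact permutation test is 0.133, so that test cannot pass 0.05 for a single ratio, and the ratios are given as a description.

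Among the ratios given here, those of S100g and Ttr differed least between the groups. For S100g, a calcium-binding protein gene, the log2 ratio was -3.23 ± 0.172 in the middle sections and -2.61 ± 0.196 in exVE, and for Ttr it was -0.88 ± 0.152 in the middle sections and 0.94 ± 0.126 in exVE. Apob, Cubn and Dab2 differed by more than 3 on the log2 scale. The log2 ratio to Afp had a smaller SD over the middle libraries than the level itself in 6 of 7 secreted carriers, 4 of 4 coagulation genes and 8 of 13 apolipoprotein genes at 10 CPM or more in all 6 libraries. It did so in 0 of 28 endosome genes, 0 of 28 lysosomal membrane genes, 0 of 15 fatty acid genes and 0 of 20 cholesterol genes, and in 135 of 7817 of all genes at that level (1.73%). Uptake receptors (5 of 14), iron genes (6 of 13) and brush border genes (6 of 14) stood between. A gene that varies little cannot be tighter against Afp, whose own SD was 0.717. The median SDs of the endosome, lysosomal membrane, fatty acid and cholesterol genes were 0.104, 0.148, 0.149 and 0.202, and that of all genes was 0.1. Their low counts were thus largely fixed by their small spread, and do not show whether these genes followed Afp. All these counts describe 4 libraries and carry no test.

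**Figure D3:**
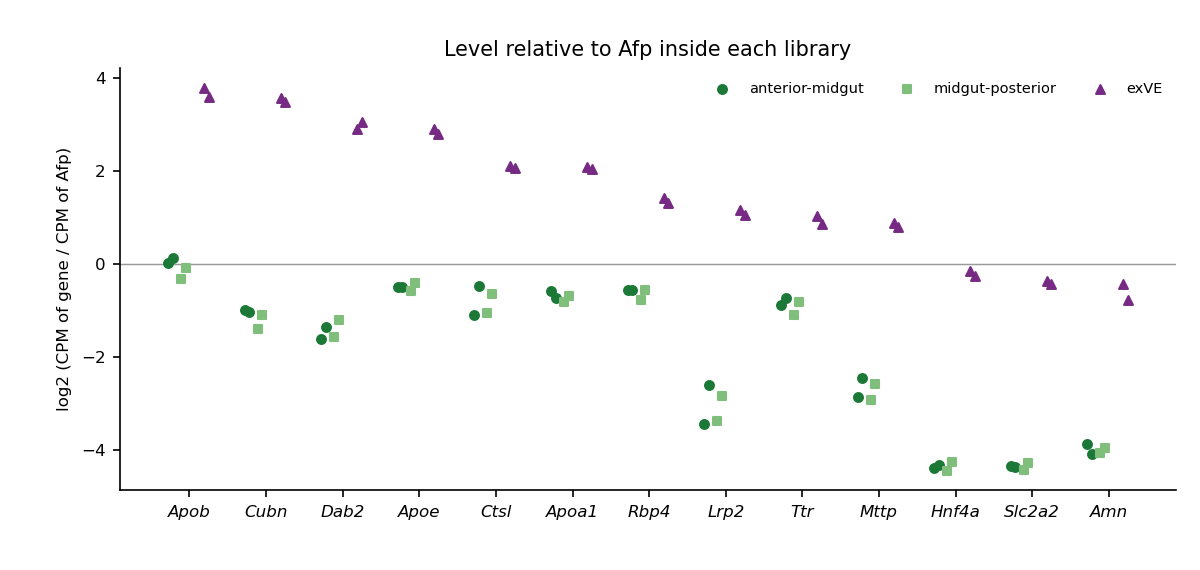
Log2 ratio of each gene's CPM to the CPM of Afp in the same library, for 13 genes ordered by their ratio in exVE, with circles for anterior-midgut, squares for midgut-posterior and triangles for exVE. The middle libraries lie close together for Apoe, Apoa1, Rbp4, Slc2a2 and Hnf4a, all below the exVE libraries, and lie further apart for Lrp2 and Ctsl.

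Among genes of apical uptake, cubilin, megalin and their partners fell. Cubn encodes cubilin, a receptor for vitamin B12 with its binding protein and for apolipoprotein A-I. It stood at 707, 236, 464 and 323 CPM in the middle sections and 10056 and 10966 CPM in exVE. Every middle library was more than 10-fold below exVE (log2 fold change -4.61, SE 1.09, adjusted p = 0.00284). Amn, which encodes the partner that brings cubilin to the membrane, stood at 95.8, 28.4, 72.3 and 44.7 CPM in the middle sections and 624 and 570.5 CPM in exVE (log2 fold change -3.31, SE 0.91, adjusted p = 0.00706). Lrp2, or megalin, the giant scavenger receptor that works with cubilin, stood at 129, 79.6, 117 and 95.8 CPM in the middle sections and 1887 and 2038 CPM in exVE, 18.6-fold lower (log2 fold change -4.22, SE 0.22, adjusted p = 3.89e-08). Dab2, the adaptor that links both receptors to clathrin, stood at 459, 189, 411 and 298 CPM in the middle sections and 6269 and 8184 CPM in exVE (log2 fold change -4.42, SE 0.52, adjusted p = 1.51e-05). All 4 genes were lower in each middle library, and all 4 stayed above 20 CPM there. Scarb1, the HDL receptor, and Clcn5, an endosomal chloride transporter, fell too, by 2.61 and 2.41 on the log2 scale.

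Other receptors rose. Tfrc, the transferrin receptor for iron, stood at 208, 241, 187 and 199.9 CPM in the middle sections and 63.3 and 44.7 CPM in exVE, 3.86-fold higher (log2 fold change 1.95, SE 0.20, adjusted p = 4.45e-06). Lrp1, a relative of megalin, stood at 214, 196, 201 and 224 CPM in the middle sections and 68.8 and 51.9 CPM in exVE (log2 fold change 1.79, SE 0.15, adjusted p = 9.28e-07), and Cd320, the receptor for transcobalamin, at 47.0 ± 2.97 CPM in the middle sections and 21.5 ± 5.18 CPM in exVE (adjusted p = 3.66e-04). Thus for vitamin B12 the carrier gene Tcn2 and the receptor gene Cubn fell while Cd320 rose. In all, 11 of 20 uptake receptor genes fell (55.0%) and 7 rose (35.0%, close to the 34.9% of all genes tested), with a median of -0.72. Their summed level was 3105, 2036, 2695 and 2342 CPM in the middle sections and 21891 and 24969 CPM in exVE.

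Most endosome and lysosome genes fell. Of 28 endosome genes 22 fell and 1 rose (median -1.18), of 40 lysosomal hydrolases 29 fell and 3 rose (median -1.60), and of 35 genes of the lysosomal membrane and its acidification 30 fell and 2 rose (median -1.48). All 28 endosome genes were at 10 CPM or more in all 6 libraries, as were 35 of the hydrolases. Clathrin heavy chain, Cltc, stood at 643, 516, 603 and 574 CPM in the middle sections and 2316 and 2627 CPM in exVE (log2 fold change -2.08, SE 0.12, adjusted p = 7.19e-08). Myo6, a motor that moves endocytic vesicles inward, fell 8.26-fold, at 88.0 ± 21.0 CPM in the middle sections and 724 ± 83.3 CPM in exVE. The sorting receptor gene Sort1 was the one endosome gene that rose, at 169.6, 171, 152 and 152 CPM in the middle sections and 19.4 and 15.4 CPM in exVE (log2 fold change 3.21, SE 0.14, adjusted p = 1.92e-08).

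Among the proteases, the cathepsin gene Ctsb stood at 288, 177, 233 and 179.8 CPM in the middle sections and 2658 and 2809.6 CPM in exVE (log2 fold change -3.64, SE 0.26, adjusted p = 2.68e-07). Ctsh stood at 185, 64.9, 155 and 106 CPM in the middle sections and 1694 and 1902 CPM in exVE, and Lgmn, an asparaginyl endopeptidase that processes cathepsins, at 469.7, 173, 372 and 264 CPM in the middle sections and 3859 and 4604 CPM in exVE. In each case all middle libraries lay far below exVE, with log2 fold changes of -3.81 and -3.73. Ctsl, another cathepsin gene, fell 7.56-fold. A few hydrolases rose. Gusb, beta-glucuronidase, rose, at 70.7, 70.3, 64.5 and 59.7 CPM in the middle sections and 22.5 and 22.1 CPM in exVE (log2 fold change 1.57, SE 0.11, adjusted p = 2.69e-07). The other calls higher, Psap and Ids, were lost when 1 library was left out, so that the list's count higher was 1 without anterior-midgut replicate 1, midgut-posterior replicate 2 or either exVE replicate.

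Lysosomal membrane and proton pump genes fell as well. Lamp1, a main membrane glycoprotein, stood at 467, 312, 426 and 371 CPM in the middle sections and 1457 and 1592 CPM in exVE (log2 fold change -1.95, SE 0.13, adjusted p = 2.00e-07). Npc1, which exports cholesterol, fell by 2.28 on the log2 scale and the pump subunit gene Atp6v0a1 by 2.77. Scarb2, the receptor that sorts glucocerebrosidase to lysosomes, rose, at 44.1, 44.7, 41.1 and 42.3 CPM in the middle sections and 11.2 and 8.48 CPM in exVE (log2 fold change 2.13, SE 0.13, adjusted p = 1.05e-07). Of the related transcription factors that drive lysosomal genes 3 fell. Tfeb stood at 13.5, 4.98, 8.21 and 6.09 CPM in the middle sections and 102 and 105 CPM in exVE (log2 fold change -3.67, SE 0.43, adjusted p = 1.53e-05), Tfec at 2.52, 1.52, 1.70 and 1.87 CPM in the middle sections and 43.9 and 43.6 CPM in exVE (log2 fold change -4.52, SE 0.26, adjusted p = 7.45e-08) and Tfe3 at 47.0, 39.9, 45.3 and 42.4 CPM in the middle sections and 149.9 and 161 CPM in exVE (log2 fold change -1.83, SE 0.09, adjusted p = 2.23e-08). Their groups did not overlap. Mitf, the other member of the family, was low on both sides, at 1.65 ± 0.683 CPM in the middle sections and 1.45 ± 0.00881 CPM in exVE (log2 fold change 0.12, adjusted p = 0.728).

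These factors bind the letters TCACGTGA, the core of the CLEAR element, and 3 promoters that hold it are shown as examples from genes that fell. Sequences are from RefSeq on GRCm38.p6, from 250 bases before to 50 bases after the gene start, both strands were searched, and capitals mark each match.
Ctsa (chr2:164833523-164833822, plus strand): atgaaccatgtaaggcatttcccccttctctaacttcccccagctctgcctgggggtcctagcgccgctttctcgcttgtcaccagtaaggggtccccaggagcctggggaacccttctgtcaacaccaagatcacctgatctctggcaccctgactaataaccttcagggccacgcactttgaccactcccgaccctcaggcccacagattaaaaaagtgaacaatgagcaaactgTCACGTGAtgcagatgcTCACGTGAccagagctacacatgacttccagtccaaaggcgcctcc
Mcoln1 (chr8:3500269-3500568, plus strand): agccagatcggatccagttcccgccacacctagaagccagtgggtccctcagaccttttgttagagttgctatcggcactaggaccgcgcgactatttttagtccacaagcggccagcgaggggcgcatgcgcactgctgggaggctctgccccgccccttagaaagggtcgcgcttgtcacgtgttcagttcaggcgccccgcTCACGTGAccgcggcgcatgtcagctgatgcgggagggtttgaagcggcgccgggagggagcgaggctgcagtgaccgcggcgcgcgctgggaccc
Atp6v1a (chr16:44139210-44139509, minus strand): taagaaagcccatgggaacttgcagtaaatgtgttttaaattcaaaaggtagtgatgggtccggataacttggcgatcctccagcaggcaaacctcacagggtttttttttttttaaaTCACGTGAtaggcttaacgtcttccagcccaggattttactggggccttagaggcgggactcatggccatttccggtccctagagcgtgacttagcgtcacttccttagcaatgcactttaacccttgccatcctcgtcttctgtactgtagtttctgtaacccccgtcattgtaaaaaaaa
Ctsa, a carboxypeptidase that also protects other hydrolases, stood at 108 ± 13.4 CPM in the middle sections and 640.4 ± 17.1 CPM in exVE, and its promoter holds the letters in 2 places. Mcoln1, a calcium channel of the lysosomal membrane, stood at 33.0 ± 2.02 CPM in the middle sections and 121 ± 5.54 CPM in exVE, and the pump subunit gene Atp6v1a at 118 ± 13.7 CPM in the middle sections and 632 ± 51.2 CPM in exVE. All 3 fell (adjusted p = 2.48e-07, 1.43e-07 and 9.82e-08). The letters were in 5 of 37 promoters of lysosomal membrane and acidification genes (13.5%), 3 of 35 of hydrolases (8.57%) and 4 of 24 of endosome genes (16.7%), against 320 of 32851 promoters in all (0.974%). A gene can have more than 1 promoter. The 24 endosome promoters are of 22 genes, and the 4 with the letters are of 3 genes, with 2 of them from Vps26a. TCACGTGA was in 0 of 22 secreted carrier promoters and in 1 of 21 uptake receptor promoters (4.76%). A second motif, the HNF4 letters CAAAGTCCA, was searched in the same way. It was in 0 of 22 secreted carrier, 0 of 11 coagulation and 0 of 20 apolipoprotein promoters. In brush border promoters it was in 4 of 38 (10.5%), and in all promoters in 156 of 32851 (0.475%). Of the genes with TCACGTGA, 5 of 5 of the lysosomal membrane list, 2 of 3 hydrolases and 2 of 3 endosome genes fell and the others did not pass. Igf2r, the 1 uptake receptor gene with TCACGTGA, fell too, and in the glycogen list 1 such gene rose. In the whole lysosomal membrane, hydrolase and endosome lists 85.7%, 72.5% and 78.6% of genes fell, so falls were common there in any case. The part of these factors in the falls was not tested. The remaining promoters of these lists do not hold TCACGTGA in this window.

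Lipid genes divided by pathway. Of 27 genes of fatty acid uptake and oxidation 22 fell and 2 rose (median -1.32). Ehhadh, of peroxisomal oxidation, stood at 9.79, 5.48, 6.81 and 6.19 CPM in the middle sections and 101 and 101 CPM in exVE (log2 fold change -3.84, SE 0.23, adjusted p = 1.00e-07). Ppara, the nuclear receptor that controls these genes, stood at 0.377, 0.182, 0.307 and 0.180 CPM in the middle sections and 4.30 and 4.51 CPM in exVE (log2 fold change -4.07, SE 0.54, adjusted p = 3.92e-05). Acadm, of mitochondrial oxidation, fell to 40.9 ± 5.34 CPM in the middle sections, against 183 ± 12.6 CPM in exVE. The fatty acid translocase gene Cd36 went the other way. It stood at 32.7, 40.0, 29.9 and 32.6 CPM in the middle sections and 0 and 0 CPM in exVE, at least 1140-fold higher against a floor of 3 counts over the exVE group (adjusted p = 2.84e-06). Cd36 is also a gene of endothelium, and all 13 endothelial markers tested rose as well. Their part in this result was not tested.

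In cholesterol synthesis more genes rose than fell. Of 24 genes 12 rose (50.0%) and 6 fell (25.0%), with a median of 0.36. Over all genes tested 34.9% rose and 27.8% fell, with a median of 0.17. Sqle, a rate-limiting squalene epoxidase, stood at 95.1, 109, 73.7 and 76.6 CPM in the middle sections and 14.0 and 10.8 CPM in exVE (log2 fold change 2.82, SE 0.13, adjusted p = 2.23e-08). Cyp51, the lanosterol demethylase, stood at 90.4, 115, 66.0 and 72.8 CPM in the middle sections and 29.3 and 32.3 CPM in exVE (log2 fold change 1.45, SE 0.13, adjusted p = 1.30e-06). In both genes every middle library was above exVE. Among those that fell were Hsd17b7 and Ebp, which act late in the pathway, and Stard4, a cholesterol carrier inside cells, with log2 fold changes of -1.28, -1.04 and -1.23. Scaling to library totals alone left 3 genes lower in place of 6. Over the alternatives that kept all libraries, the count higher was between 8 and 16 and the count lower between 3 and 7.

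Genes of retinoid handling moved in both directions. Aldh1a2, which makes retinoic acid, stood at 156, 214, 93.2 and 98.7 CPM in the middle sections and 0.363 and 0.0778 CPM in exVE (log2 fold change 9.24, adjusted p = 3.72e-07), and its log2 fold change was 10.72 without exVE replicate 1 and 8.52 without exVE replicate 2. Stra6, the receptor that takes retinol from its carrier, stood at 28.3, 37.6, 23.2 and 24.6 CPM in the middle sections and 0.887 and 0.506 CPM in exVE (log2 fold change 5.33, SE 0.37, adjusted p = 2.45e-07), and the binding protein genes Crabp1 and Crabp2 rose 27.8-fold and 5.72-fold. Other genes of retinoic acid synthesis and retinoid binding did not pass, with log2 fold changes of -0.65 for Rdh10, 0.12 for Aldh1a3 and -0.31 for Rbp2 (adjusted p = 0.0775, 0.907 and 0.595). Cyp26a1, which degrades retinoic acid, fell, at 23.2, 18.8, 19.2 and 21.5 CPM in the middle sections and 161 and 213 CPM in exVE (log2 fold change -3.18, SE 0.27, adjusted p = 1.11e-06), and so did Bco1, which cleaves carotene (log2 fold change -3.10, SE 0.45, adjusted p = 9.04e-05). Aldh1a2 and Crabp1 are also genes of embryonic mesenchyme, and 17 of 18 mesenchyme markers rose as well. Their part here was not tested. Among transporters of water-soluble vitamins, Slc23a1, for vitamin C, fell and stood at 17.2, 6.49, 16.1 and 9.56 CPM in the middle sections and 159 and 189 CPM in exVE (log2 fold change -3.82, SE 0.47, adjusted p = 2.29e-05), and Slc19a1, for folate, and Slc52a2, for riboflavin, fell by 1.78 and 1.99 on the log2 scale. Slc19a2, for thiamine, did not pass (log2 fold change -0.18, adjusted p = 0.542). In all, 9 of 23 genes rose (39.1%) and 8 fell (34.8%), with a median of -0.31. Over all genes tested these shares were 34.9% and 27.8%.

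Of 22 iron and metal genes 17 fell and 3 rose (median -1.76). Ferritin heavy chain, Fth1, which stores iron, stood at 759, 537, 799.9 and 684 CPM in the middle sections and 5676 and 5618 CPM in exVE (log2 fold change -3.03, SE 0.22, adjusted p = 4.12e-07), and metallothionein, Mt1, at 68.2, 26.6, 62.2 and 34.1 CPM in the middle sections and 636 and 622 CPM in exVE (log2 fold change -3.72, SE 0.47, adjusted p = 2.53e-05). Both were lower in every middle library. Ferritin light chain, Ftl1, which has near-identical pseudogenes that can share its reads, fell by 0.74. Slc11a2, the main importer of ferrous iron, fell by 1.51, and Slc39a8, which imports zinc and manganese, by 2.55. The genes that rose were Tfrc, Hfe and Heph. Heph, a copper oxidase that helps iron leave intestinal cells, stood at 54.9, 59.7, 49.6 and 52.4 CPM in the middle sections and 2.54 and 0.7003 CPM in exVE (log2 fold change 5.06, SE 0.45, adjusted p = 1.61e-06), and its log2 fold change was 6.27 without exVE replicate 1 and 4.42 without exVE replicate 2. Hfe, a regulator of iron uptake, was low on both sides, at 1.14 ± 0.428 CPM in the middle sections and 0.357 ± 0.00908 CPM in exVE, and its call was lost without exVE replicate 2 (adjusted p = 0.0506).

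Solute transporters fell in 14 of 23 cases and rose in 4 (median -2.27). The amino acid exchanger gene Slc7a8 stood at 55.0, 18.6, 40.4 and 25.0 CPM in the middle sections and 1125 and 1228 CPM in exVE, 33.9-fold lower (log2 fold change -5.08, SE 0.84, adjusted p = 2.18e-04), and Slc7a7, for cationic amino acids, at 23.3, 9.87, 22.3 and 13.7 CPM in the middle sections and 429 and 495 CPM in exVE (log2 fold change -4.74, SE 0.35, adjusted p = 3.87e-07). Slc3a2, the partner chain of both, fell 6.58-fold. Slc2a3, a high-affinity glucose transporter gene, stood at 1769.6, 911, 1893 and 1299 CPM in the middle sections and 7737 and 8711 CPM in exVE (log2 fold change -2.49, SE 0.27, adjusted p = 7.75e-06), and the lactate carrier gene Slc16a1 fell by 2.56. Slc2a1, the basal glucose transporter gene, stood at 609, 451, 825 and 758 CPM in the middle sections and 795 and 752 CPM in exVE, and the groups overlapped (log2 fold change -0.26, SE 0.13, adjusted p = 0.104). It was called lower without anterior-midgut replicate 1 (adjusted p = 0.0221) and in anterior-midgut alone (log2 fold change -0.55, adjusted p = 0.00858), while midgut-posterior alone was at 0.0337 (adjusted p = 0.868). Slc16a3, which exports lactate, and the amino acid carrier genes Slc38a4 and Slc38a2 rose 6.78-fold, 11.4-fold and 3.20-fold. Without exVE replicate 1 the log2 fold changes were 3.60 for Slc16a3 and 4.41 for Slc38a4. At the apical surface 15 of 28 genes fell and 6 rose (median -2.01). Villin, Vil1, which bundles actin in microvilli, stood at 62.0, 22.6, 54.5 and 42.0 CPM in the middle sections and 421 and 449 CPM in exVE (log2 fold change -3.27, SE 0.41, adjusted p = 2.73e-05). Slc9a3r1, a scaffold under the apical membrane, fell by 2.60 on the log2 scale, and the peptidase gene Dpp4 by 2.33. Prom1, a protein of membrane protrusions, stood at 109, 119, 119 and 110.1 CPM in the middle sections and 12.2 and 5.39 CPM in exVE (log2 fold change 3.70, SE 0.28, adjusted p = 4.94e-07; 4.41 without exVE replicate 1), and the peptidase gene Mme rose 19.6-fold.

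Genes of glycogen, gluconeogenesis and the urea cycle had no common direction, with 5 of 16 higher (31.2%) and 6 lower (37.5%, median -0.06). Over all genes tested 34.9% rose and 27.8% fell. Arg1, the last enzyme of the urea cycle, stood at 383, 453, 272 and 249 CPM in the middle sections and 1.41 and 0.681 CPM in exVE, 316-fold higher (log2 fold change 8.30, SE 0.33, adjusted p = 1.44e-08), with a log2 fold change of 8.92 without exVE replicate 1. Cps1, the first enzyme of the cycle, had 0 counts in exVE and 3.01 ± 1.13 CPM in the middle sections, at least 101-fold higher, while Ass1, between them, fell, at 33.2, 8.996, 26.9 and 13.5 CPM in the middle sections and 193 and 200.3 CPM in exVE (adjusted p = 4.74e-04). The liver pyruvate kinase gene Pklr fell by 3.49 on the log2 scale. Pck1, of gluconeogenesis, was low on both sides, at 0.0748 ± 0.0867 CPM in the middle sections and 4.36 ± 1.15 CPM in exVE (adjusted p = 0.00107).

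Endoderm factors moved in both directions, and most regional factors of the gut rose. Hnf4a, a nuclear receptor that drives many carrier and lipoprotein genes, stood at 67.1, 24.2, 55.7 and 36.2 CPM in the middle sections and 755 and 817 CPM in exVE, 17.2-fold lower (log2 fold change -4.10, SE 0.56, adjusted p = 4.81e-05). Eomes, a T-box factor of early endoderm and of extraembryonic tissue, stood at 0.312, 0.363, 0.307 and 0.360 CPM in the middle sections and 40.9 and 50.4 CPM in exVE (log2 fold change -7.08, SE 0.32, adjusted p = 1.96e-08), and Maf fell 12.3-fold. Gata4 fell and Gata6 rose, with log2 fold changes of -2.05 and 0.93 (adjusted p = 0.0119 and 0.0122). Both calls were lost without exVE replicate 2 (adjusted p = 0.055 and 0.0732), and that of Gata6 also without exVE replicate 1 (adjusted p = 0.0568). Foxa1, given above, and Nr5a2, a nuclear receptor of gut and liver, at 15.4, 14.2, 20.8 and 16.3 CPM in the middle sections and 1.49 and 2.14 CPM in exVE (log2 fold change 3.19, SE 0.35, adjusted p = 8.23e-06), rose. Of 29 endoderm factors 15 fell (51.7%) and 9 rose (31.0%), with a median of -1.25. Over all genes tested 27.8% fell and 34.9% rose. Of 22 regional factors 19 rose and 2 fell (median 5.01), among them Isl1 and Mnx1, and of 37 Hox genes 26 rose and 2 fell (median 4.07, or 3.96 with genes at 0 counts set at their bound). Hoxb1 stood at 71.5, 70.9, 32.6 and 55.8 CPM in the middle sections and 0.282 and 0.311 CPM in exVE (log2 fold change 7.55, SE 0.41, adjusted p = 5.21e-08). Cdx2, the factor of intestinal identity, stood at 16.1, 15.7, 80.1 and 59.9 CPM in the middle sections and 51.7 and 52.6 CPM in exVE, and the 2 sections lay on either side of exVE, although the mean of the sections was called lower (log2 fold change -0.65, SE 0.19, adjusted p = 0.0104). That call was lost without exVE replicate 2 (adjusted p = 0.0579), which left 1 regional factor lower, and midgut-posterior alone was above exVE (0.42). Leaving out exVE replicate 1 left 1 Hox gene lower.

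Genes that mark exVE fell in 20 of 22 cases (median -2.83). The count higher was 0 in edgeR, at an unadjusted p under 0.05 as well, and 0 in DESeq2. This list was drawn up with levels of these libraries known, so it is no independent evidence. Rhox5, an X-linked homeobox gene of extraembryonic tissue, stood at 73.6, 27.2, 70.4 and 48.0 CPM in the middle sections and 709 and 728 CPM in exVE (log2 fold change -3.72, SE 0.45, adjusted p = 1.82e-05), the sulfate transporter gene Slc13a4 at 125, 41.3, 106 and 66.2 CPM in the middle sections and 1949.5 and 2145 CPM in exVE and the imprinted RNA gene H19 at 8433, 6394, 7983 and 8737 CPM in the middle sections and 28742 and 28532 CPM in exVE. All 3 fell, and the groups did not overlap. Epithelial genes had no common direction, with 7 of 25 higher (28.0%) and 11 lower (44.0%, median -0.17). Over all genes tested 34.9% rose and 27.8% fell. The keratin genes Krt7 and Krt19 rose 32.3-fold and 15.9-fold, while Cdh1, the epithelial cadherin, fell, at 189.8, 145, 216 and 167 CPM in the middle sections and 623 and 615 CPM in exVE (log2 fold change -1.79, SE 0.24, adjusted p = 3.95e-05).

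Lacking genes, at 10 CPM or more in both exVE libraries and under 1 CPM in all 4 middle libraries, numbered 12 of 17313 (0.0693%), and none was on a nutritive list. These were Arid3c, Ceacam2, Cyp2d26, Eomes, Fmo2, Runx3, Scube2, Slc24a4, Strip2, Tmem116, Zfp36l3 and Zic5, named after their values were seen. Arid3c, a DNA-binding protein gene, stood at 0.338, 0.169, 0.112 and 0.0277 CPM in the middle sections and 40.1 and 55.0 CPM in exVE (log2 fold change -8.46, SE 0.62, adjusted p = 3.87e-07). The T-box gene Eomes is given above, and Zfp36l3, an RNA-binding protein gene of extraembryonic tissue, stood at 0.598, 0.0389, 0.363 and 0.346 CPM in the middle sections and 18.1 and 14.9 CPM in exVE (log2 fold change -5.61, SE 0.75, adjusted p = 4.13e-05; -7.09 without anterior-midgut replicate 1). Other genes with the largest falls kept a low level. The ligand gene Apln fell by 5.74 on the log2 scale and Mlxipl, a glucose-sensing factor that turns on lipid synthesis, by 5.59, at 1.96, 1.35, 0.698 and 0.318 CPM in the middle sections and 44.1 and 44.7 CPM in exVE. Slc7a8 and Bhmt2, of methionine metabolism, were also among the 12 largest falls. Genes gained in the middle sections by the reverse criterion numbered 169 (0.976%), or 293 without exVE replicate 1, and 4 were on nutritive lists.

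Genes of mesoderm and endothelium and Hox genes were among the 12 largest rises, as was Cd36. The matrix gene Postn, the somite gene Meox1, the endothelial gene Emcn and the Hox genes Hoxc5 and Hoxc8 had 0 counts in both exVE libraries. They were at least 4030-fold, 1120-fold, 878-fold, 602-fold and 738-fold higher in the middle sections. Of 17 splanchnic and cardiac genes 17 rose (median 6.77), of 18 mesenchyme genes 17 rose (median 7.60, or 6.17 at the bounds), of 13 endothelial genes 13 rose (median 3.65), and of 12 blood genes 7 rose and 2 fell (median 2.58). The summed level of splanchnic and cardiac markers was 2348, 1984, 483 and 719 CPM in the middle sections and 23.2 and 19.02 CPM in exVE, with the anterior-midgut libraries above the midgut-posterior ones. The mesenchyme sum was 2061, 1849, 1674 and 2516 CPM in the middle sections and 276 and 263 CPM in exVE, and the blood sum 388, 505, 575 and 1076 CPM in the middle sections and 87.2 and 37.9 CPM in exVE. The defining cardiac genes Myh6 and Actc1 averaged 177 and 285 CPM in the middle sections and 0.0202 and 0.0598 CPM in exVE, and the mesenchyme genes Col3a1 and Twist2 489 and 22.6 CPM against 0.0778 and 0.0598 CPM. All these markers moved with the comparison, and their part in the nutritive results was not tested.

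**Figure D4:**
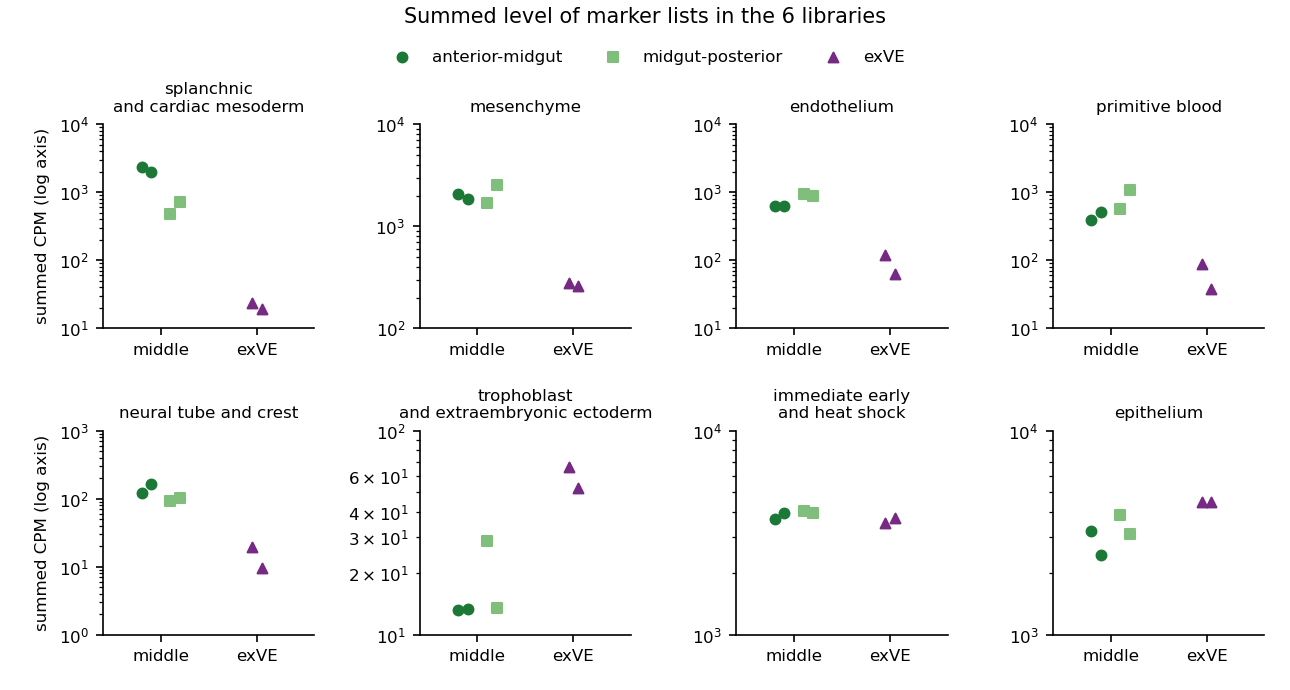
Summed CPM of 8 marker lists in each library, on a log axis, with the middle libraries on the left (circles for anterior-midgut, squares for midgut-posterior) and exVE on the right (triangles). Mesoderm, mesenchyme, endothelium, blood and neural sums are higher in every middle library, the trophoblast sum is higher in exVE, and the stress list overlaps in sum.

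The neural sum was higher and the trophoblast sum lower in every middle library. The neural sum was 119, 162, 92.6 and 104 CPM in the middle sections and 19.3 and 9.67 CPM in exVE. Of 13 neural genes 6 rose (46.2%) and 7 did not pass. The trophoblast sum was 13.2, 13.3, 28.7 and 13.5 CPM in the middle sections and 66.6 and 52.4 CPM in exVE. Of 11 trophoblast genes 1 rose and 4 fell (36.4%), and this split differed without exVE replicate 1. Of 13 parietal endoderm genes 6 rose and 4 fell, and of 15 epiblast and streak genes 2 rose and 5 fell. Over all genes tested 34.9% rose and 27.8% fell. Epcam overlapped between the groups as given above. Genes of the immediate early and heat shock response moved with the groups, and their part in the other results was not tested. Of 24 immediate early and heat shock genes 15 rose and 3 fell (median 2.29), with Jun at 206, 293, 265 and 252 CPM in the middle sections and 12.9 and 8.29 CPM in exVE (log2 fold change 4.58, SE 0.36, adjusted p = 5.83e-07) and Socs3 at 34.1 ± 5.91 CPM in the middle sections and 1.79 ± 0.606 CPM in exVE, while the chaperone gene Hspa8 fell. Between the dissociated and the bulk whole gut tubes, the median log2 change of the same list was 1.73, higher in the dissociated tubes. In it 0 of 24 genes passed the edgeR test, and 17 were higher and 0 lower at an unadjusted p under 0.05. Medians were also above 0 for secreted carriers (1.41), apolipoprotein genes (0.98) and the exVE identity list (0.92). At that unadjusted p, 8, 7 and 12 of their genes were higher and 0 lower, with 0 past adjustment. The endosome median was 0.048 and that of blood -1.19. The part of dissociation in the comparison with exVE was not tested, and the share over all genes is not given here. Of 22 cell cycle genes 10 rose and 5 fell (median 0.31), or 17 and 0 with library totals alone and 3 lower without any 1 of the midgut-posterior or exVE replicates, and of 22 glycolysis genes 8 rose and 5 fell (median 0.13).

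Signalling genes were tested beside these lists, and 17 of 34 rose and 9 fell (median 0.85, or 0.78 at the bounds). Shh, the ligand of gut epithelium, stood at 41.5, 43.9, 84.0 and 48.5 CPM in the middle sections and 0.121 and 0 CPM in exVE (adjusted p = 4.80e-07), and its target Gli1 at 44.2, 77.5, 59.3 and 82.5 CPM in the middle sections and 0.323 and 0.233 CPM in exVE (log2 fold change 7.88, SE 0.44, adjusted p = 6.56e-08). Spry4, a feedback inhibitor of FGF signalling, fell and stood at 2.16, 3.14, 4.15 and 4.58 CPM in the middle sections and 63.0 and 70.2 CPM in exVE (log2 fold change -4.29, SE 0.20, adjusted p = 2.23e-08), and the factor genes Etv4 and Etv5 fell by 2.82 and 2.43 on the log2 scale.

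Between the anterior-midgut and midgut-posterior sections 86 of 17313 genes passed (0.497%), and Fabp1, a fatty acid binding protein gene of liver and intestine, was the only nutritive list gene among them. Fabp1 stood at 1.62, 1.74, 13.0 and 7.42 CPM in the middle sections and 49.0 and 54.6 CPM in exVE, higher in midgut-posterior (log2 difference, anterior-midgut minus midgut-posterior, -2.60, SE 0.41, adjusted p = 0.0223). The others included regional and cardiac genes such as Cdx2, Hoxc8, Myh6 and Actc1. The emVE at E7.5, which lies over the embryo, stood between the groups for Cubn, Apob and Hnf4a. Cubn was at 432 ± 206 CPM in the middle sections, 3307 ± 32.1 CPM in emVE and 10511 ± 643 CPM in exVE. Apob was at 894 ± 399, 5251 ± 190.2 CPM and 11776 ± 151 CPM in the same order, and Hnf4a at 45.8 ± 19.2, 275 ± 19.8 CPM and 786 ± 44.4 CPM. Afp was at 759 ± 130.4 CPM in emVE. The summed level of the uptake receptors was 8100.2 and 8674 CPM in emVE, between the sums given above, while their median level, as log2 of CPM plus 0.5, was 7.03 and 7.23 in emVE and 7.13 and 6.95 in exVE, and overlapped. These comparisons share the middle libraries.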

How the data were processed

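Bulk RNA-seq libraries of mouse endoderm were used as raw read counts per gene, which the authors deposited as 1 table per library. Per the submitters' processing notes reads were aligned with STAR. For its version, the build, the gene models, the counter and the strand setting, the answer is the same: not given in the sources used here. Each table lists 26795 entries. Of these, 32 symbols occur more than once and were summed, which gives 26761 symbols; 25562 of them matched the RefSeq gene table by name, and 0 rows named no gene. Counts are reads without molecular identifiers. The SEs, intervals and p-values cover only the spread between libraries of a group.

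Counts were fitted with edgeR 4.0.16 (R 4.3.3) on all 16 libraries with 1 coefficient for each labelled group of 2, TMM normalization, filterByExpr (minimum count 10, minimum total 15) and the quasi-likelihood F-test with 8 residual degrees of freedom. The contrast was the mean of the anterior-midgut and midgut-posterior coefficients minus exVE, two-sided, with Benjamini-Hochberg adjustment. A gene was called present at 10 CPM or more in all 6 libraries and lacking at under 1 CPM in all 4 middle libraries with 10 CPM or more in both exVE libraries. Groups came from the sample labels. Within each group the 2 libraries differed by more than counting noise. Alternatives were DESeq2 1.42.0, RLE size factors, library totals, no filter, other designs, each section alone, a replicate block, other CPM floors and leaving out each library.

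The comparison, the members and the gene lists were chosen with earlier results of these data known. Named genes were the 12 largest changes in each direction without overlap between the groups, kept where the group with more signal averaged 4 or above in log2 CPM, and in each list up to 5 genes with the smallest adjusted p in each direction and the 5 with the highest mean CPM, plus a few markers. Some genes that the rule names are not reported here. Aldh1a3, Bco1, Dgat1, Apoa2, Epcam, Fabp1, Foxa2, Mcoln1, Mitf, Nepn, Ppara, Rbp2, Rdh10, S100g, Slc19a2, Slc2a2, Tfeb, Tfec and Vil1 were named after their values were seen. On counts simulated for this comparison over 17313 genes, 67, 67 and 66 genes were changed 1.5-fold, 2-fold and 4-fold and the others left unchanged. Of these, 8.96%, 46.3% and 87.9% were recovered, with 6 false calls among 101. In the data 62.8% of genes passed, and with so few changed genes the adjusted threshold is stricter. The rates therefore do not give the recovery in the comparison itself.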

Additional observations from a re-analysis of the deposited data

Results flagged for a closer look

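In 4 marker sums, 1 of the 4 middle libraries stood apart from the other 3. Among 41 sums and genes tested in this way, chance flags about 1 in 20 groups. The gap to the nearest library, divided by the range of the 4, on log2 CPM, was 0.968 for trophoblast markers, where midgut-posterior replicate 1 was at 28.7 CPM and the other middle libraries at 13.2, 13.3 and 13.5 CPM, all below the 66.6 and 52.4 CPM of exVE. It was 0.895 for parietal endoderm markers, where anterior-midgut replicate 2 was low, 0.88 for glycolysis and hypoxia genes, where midgut-posterior replicate 2 was low, and 0.83 for the exVE identity list, where anterior-midgut replicate 2 was low. On CPM the ratio of the exVE identity list was 0.807, under the critical value, so it stands apart on the log scale only. Anterior-midgut replicate 2 was also the library with the lowest Afp.

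Of 152 genes named here, 5 differed between the anterior-midgut and midgut-posterior sections in their distance from exVE, by the edgeR test of the difference between the sections. The log2 difference, anterior-midgut minus midgut-posterior, was 7.46 for Myh6 and 5.54 for Actc1, both genes of heart muscle, -2.14 for Cdx2, -2.81 for Hoxc8 and -2.60 for Fabp1. Fabp1 is the nutritive gene among them, and both sections were below exVE for it.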

How the results depend on the processing

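Leaving out 1 library gave between 8813 and 10219 calls in place of 10869, between 195 and 213 nutritive genes lower and between 48 and 58 higher, and DESeq2 gave 11366 calls. Of 139 genes named here that passed, 131 passed with each library left out and 128 under all 15 alternatives. With library totals alone there were 3208 genes lower and 5 lacking. List counts under library totals were 4 endosome genes higher, 6 hydrolases higher, 1 apolipoprotein gene higher, 3 cholesterol genes lower, 1 regional factor lower, 1 stress gene lower, 2 glycolysis genes lower, and 17 cell cycle genes higher with 0 lower. With no filter on low counts 2 endosome genes were higher and 3 cell cycle genes lower. With only the compared groups in the fit, 1 apolipoprotein gene was higher and 1 mesenchyme gene lower. With the middle sections as 1 group, 1 regional factor was lower. DESeq2 called 1 neural gene lower. In anterior-midgut alone, 2 endosome genes were higher, 3 cholesterol genes lower, 4 Hox genes lower and 1 epiblast gene higher. In midgut-posterior alone, 1 regional factor, 1 Hox gene and 3 cell cycle genes were lower and 3 neural genes higher. With a 5 CPM floor 37 genes were lacking and 312 gained, and with 20 CPM the counts were 2 and 68. The cause of these shifts was not tested.

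With each library left out in turn, counts ranged from 1 to 3 for hydrolases higher, 1 to 2 for coagulation genes higher, 1 to 2 for regional factors lower, 1 to 2 for Hox genes lower, 1 to 3 for trophoblast genes higher, 2 to 4 for trophoblast genes lower, 3 to 5 for cell cycle genes lower, 0 to 1 for nutritive genes lacking and 170 to 293 for genes gained, which was 293 without exVE replicate 1. The log2 fold change of Afp ranged from -0.42 to 0.35, that of Epcam from -0.0632 to 0.136, that of Aldh1a3 from -0.706 to 2.23, that of Mitf from -0.0543 to 0.273 and that of Rbp2 from -0.724 to 0.0308. Epcam was at -0.0312 with RLE size factors and with DESeq2. Slc2a1 was at 0.12 with library totals and 0.0337 in midgut-posterior alone, Rbp2 at 0.0643 and Slc19a2 at 0.20 with library totals, Cdx2 at 0.42 and Mitf at -0.31 in midgut-posterior alone and Aldh1a3 at -0.22 in anterior-midgut alone.

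Replicate numbers were not taken as pairs across the 3 groups. The deviations of same-numbered libraries correlated at 0.476 between the middle sections, and at -0.138 and -0.0599 between these and exVE. With a replicate block 10673 genes passed, 5933 higher and 4740 lower. The small groups limit the comparison: 2 libraries of exVE set its spread, genes near 0 there have uncertain fold changes, and stage, tissue and handling cannot be told apart.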
